A study of Mus musculus with 18 samples.

Results

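Recombination hotspots of B6/B6 mice that were called in none of 4 maps of heterozygous males are described here. The members are autosomal hotspots of the B6/B6 DMC1 map that have no hotspot centre within 1000 bp in the B6/Hum, infertile F1, reciprocal F1 or B6 by CAST F1 map, all of which carry 1 B6 allele of Prdm9. They were thus selected on the hotspot calls of 5 DMC1 maps. There were 8964 members among 16974 autosomal B6/B6 hotspots, or 52.8% (95% Wilson interval 52.1 to 53.6%). They are called lost below, which means only that no hotspot was called nearby in these maps. The other 8010 hotspots were found in 1 or more of the 4 maps and are called kept, and 2022 of them were found in all 4. Wilson intervals throughout account for counting hotspots and for no other error.

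The study mapped meiotic DNA breaks in mouse testis by DMC1 ChIP-seq and measured the histone mark H3K4me3 in 1 kb bins centred on the mapped hotspots. The B6/B6 DMC1 map was made by the authors from a library that others had submitted, and no age is given for it. The B6/Hum map came from C57BL/6J males with 1 B6 and 1 humanized Prdm9 allele, the infertile F1 map from PWDB6F1 males and the reciprocal F1 map from B6PWDF1 males, both with PWD and B6 as their alleles, and the CAST map from B6CASTF1 males with the B6 and CAST alleles, all about 10 weeks old. Males without a B6 allele gave 4 further maps, namely Hum/Hum in C57BL/6J, PWD/PWD in PWD/PhJ, the rescue F1 (PWDB6F1, PWD/Hum) and the Hum/PWD F1 (B6PWDF1, Hum/PWD), also about 10 weeks old. The H3K4me3 values used here came from whole adult testis of B6/B6 males of the B6 strain. Each DMC1 map is 1 library, and the B6/B6 H3K4me3 table is 1 library of 70 to 80 M usable read pairs split into 2 pseudoreplicates, with the input of Hum/Hum males. No genotype could therefore be tested against another, and the spread given below is that over the 19 autosomes. It is the SD of values of single autosomes and no standard error of the value over all of them. Because the B6/B6 DMC1 library has another origin than the 4 heterozygote libraries, a difference of genotype and a difference of library cannot be told apart. In whole testis, fewer marked cells and less mark per cell cannot be told apart either.

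PRDM9 is a meiotic protein whose zinc fingers bind a DNA motif and whose methyltransferase domain then marks the nearby nucleosomes with H3K4me3. Double-strand breaks made at a part of these sites are resected to single-stranded DNA, which the strand-exchange protein DMC1 coats. Alleles of Prdm9 differ in their zinc fingers and so place breaks at different sites, and in a heterozygote the alleles can act with unequal strength.

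The sequences of a few lost and kept hotspots are given first, chosen because they hold a pattern that is more frequent at hotspot centres than beside them. The pattern GNTGCTNCT, searched on both strands, was present within 100 bp of the centre in 13.0% (12.1 to 14.1%) of the lost hotspots on the even-numbered autosomes, in 12.3% of kept hotspots of like heat and in 3.62% of windows of the same length centred 1000 bp to each side. Most lost and kept hotspots thus do not hold it. The 6 sequences below hold it in capitals, are 61 bases long, are written 5′ to 3′ on the strand named and were read from the RefSeq mm10 genome. They were chosen after the values were seen as 3 pairs of 1 lost hotspot and 1 hotspot kept in all 4 maps of nearly the same heat, where heat is the authors' relative DMC1 signal of a hotspot.
Fam155a, lost, chr8:9453923-9453983, plus strand: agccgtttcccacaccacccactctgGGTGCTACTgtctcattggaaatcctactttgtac
Kdm1a, kept, chr4:136577958-136578018, minus strand: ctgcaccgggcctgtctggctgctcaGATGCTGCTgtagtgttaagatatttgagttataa
Bbs10, lost, chr10:111306772-111306832, minus strand: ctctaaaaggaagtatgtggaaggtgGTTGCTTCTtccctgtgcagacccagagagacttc
Tmem132b, kept, chr5:126383377-126383437, minus strand: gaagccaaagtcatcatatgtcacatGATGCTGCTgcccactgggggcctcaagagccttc
Pou3f3, lost, chr1:42515297-42515357, minus strand: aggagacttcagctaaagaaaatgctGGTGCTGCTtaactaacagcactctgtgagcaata
Chst11, kept, chr10:83049634-83049694, minus strand: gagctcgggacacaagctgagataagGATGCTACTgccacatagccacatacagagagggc

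The first pair had the same heat of 186. The lost hotspot lies in an intron of Fam155a, with 13 and 9 ChIP fragments in the pseudoreplicates, 17 input fragments and an H3K4me3 enrichment of 0.372. Its partner lies in an intron of Kdm1a, which encodes a histone demethylase, with 76 and 89 ChIP fragments, 23 input fragments and an enrichment of 3.31. The enrichment, an estimate by the authors, compares a bin with the coverage around it and cannot go below 0. The Kdm1a hotspot was called within 47 bp in each heterozygote map, while the nearest heterozygote centre to the Fam155a hotspot was 15851 bp away. The second pair had heats of 177.3 near Bbs10, a gene of the Bardet-Biedl syndrome group 5107 bp away, and 177.9 at 590906 bp from Tmem132b. Enrichment was 0.0948 at the lost and 3.20 at the kept hotspot of that pair. In the last pair the lost hotspot lay 180358 bp from Pou3f3, a transcription factor gene, with heat 173.5 and enrichment 0.63, and the kept hotspot lay in an intron of Chst11, a chondroitin sulfotransferase gene, with heat 172.5 and enrichment 1.52. H3K4me3 was lower in the lost hotspot of all 3 pairs, which were chosen with these values known.

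Lost hotspots were mostly weak in the map they came from. Their median heat was 27.7, against 112.1 at kept hotspots and 49.1 over all, and heat reached from 7.5 to 267.1 among the lost and from 7.5 to 1083.1 among the kept. They made up 52.8% of hotspots and held 23.4% of the autosomal heat. Median heat went up with the number of heterozygote maps that held a hotspot, from 59.7 for the 1704 found in 1 map to 79.2 for 1598 in 2 maps, 120.35 for 2686 in 3 maps and 227.95 for the 2022 in all 4. Heat belongs to the map that the rule starts from, so these values describe the members and are no test.

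**Figure D1:**
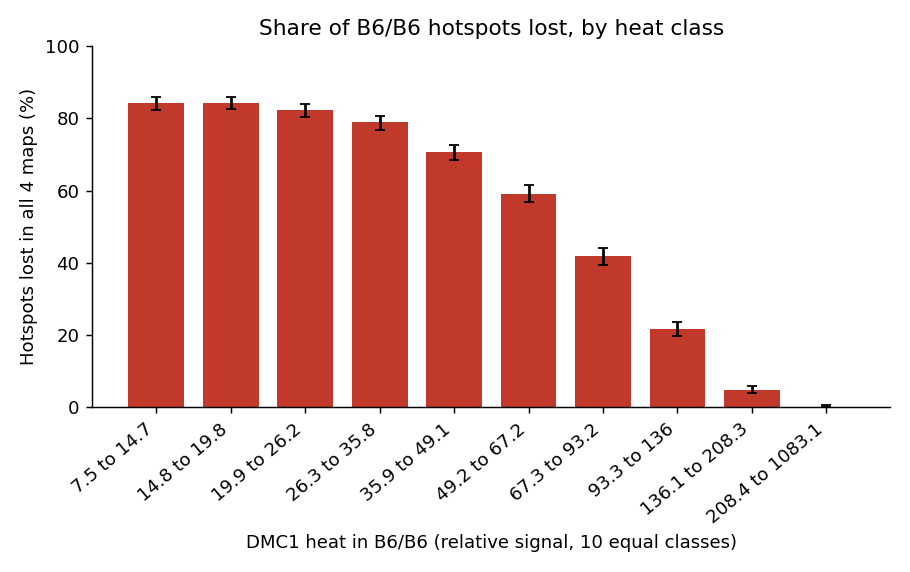
Bars give the percentage of autosomal B6/B6 hotspots lost in all 4 heterozygote maps (y axis) in 10 equal classes of DMC1 heat (x axis, relative signal), with 95% Wilson intervals. The share is 84.2% in the coldest class and 0.24% in the hottest.

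The share lost hardly moved over the coldest classes and then fell away. It was 84.2% (82.4 to 85.9%) for heat from 7.5 to 14.7, 82.2% for 19.9 to 26.2 and 70.6% for 35.9 to 49.1. Of hotspots with heat from 67.3 to 93.2 it was 41.8% (39.4 to 44.1%), of those from 93.3 to 136 it was 21.7%, and of those from 136.1 to 208.3 it was 4.89% (3.96 to 6.02%). In the hottest class, above a heat of 208.3, 4 of 1695 hotspots were lost. Heat alone thus left a broad middle range in which lost and kept hotspots could be compared at like heat.

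The 4 maps did not miss equally many hotspots. The B6 by CAST map missed 80.2% of the B6/B6 hotspots, the B6/Hum map 72.9%, the reciprocal F1 map 64.2% and the infertile F1 map 58.7%. Of the hotspots kept through a single map, 808 were found only in the infertile F1 map, 450 only in the B6/Hum map, 303 only in the B6 by CAST map and 143 only in the reciprocal F1 map. The infertile and reciprocal F1 males carry the same pair of Prdm9 alleles, so their maps do not stand for separate Prdm9 genotypes. The infertile F1 map was also the longest list, with 23554 autosomal hotspots and a lowest called heat of 4, while the B6/Hum map was the shortest, with 16163 hotspots and a lowest heat of 8.8. The share missed did not simply follow list length, since the B6 by CAST map held 18740 hotspots, more than the reciprocal map with 17516.

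The limit of 1000 bp cut a thin part of the distribution. Of the B6/B6 hotspots, 6220 had a heterozygote centre within 100 bp, 1563 at 101 to 500 bp and 227 at 501 to 1000 bp. Just beyond the limit, 224 lost hotspots had one at 1001 to 1500 bp and 221 at 1501 to 2000 bp, and from 2001 to 5000 bp the number was 205 per 500 bp. Median heat was 30.2 at 501 to 1000 bp and 28.1 at 1001 to 1500 bp. The lost hotspots closest to the limit lay 1500 bp from Meaf6, in an intron of Klhl29 and 24106 bp from Nsmaf, with nearest heterozygote centres at 1001, 1005 and 1006 bp and heats of 25.8, 58.1 and 25.7. The kept hotspots closest to it lay in introns of Sh3glb2 and of the ubiquitin ligase gene Ubr1 and 84121 bp from Irx4, at 999, 998 and 993 bp and with heats of 105.3, 53.2 and 11.3.

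H3K4me3 of the same B6/B6 genotype was low at lost hotspots and stayed lower than at kept hotspots of like heat. The median enrichment was 0.185 at the lost and 0.974 at the kept hotspots. With the kept hotspots weighted so that each of the 10 heat classes held the same share as among the lost, their median was 0.269, so that lost hotspots stood at 0.688 of the matched level. The difference of these medians was -0.0840 with an SD of 0.0649 over the 19 autosomes, and the lost median was the lower on 17 of them. H3K4me3 was not used by the rule, but heat and H3K4me3 go together and the values are from 1 library, so no p-value is given.

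From the second coldest class up, the gap was wider at higher heat, apart from the class from 67.3 to 93.2. In the coldest 2 classes the lost median was 0.804 and 0.971 of the kept median. It was 0.678 of it for heat from 35.9 to 49.1, 0.564 for 49.2 to 67.2, 0.601 for 67.3 to 93.2, 0.524 for 93.3 to 136 and 0.403 for 136.1 to 208.3. Without marked and high-input bins and without other-allele hotspots within 2 kb, the coldest 2 classes gave 0.434, from medians of 0.0144 and 0.0333, and 1.05, and the class from 135.1 to 207.4 gave 0.295. The ratio was thus not settled in the coldest classes, where both medians are close to 0. With no bins left out, the 83 lost hotspots with heat from 136.1 to 208.3 had a median of 0.548. Their 25th and 75th percentiles were 0.196 and 1.05. The 1615 kept hotspots of the class had a median of 1.36 and percentiles of 0.814 and 2.10. Heat was not the same within that class, with medians of 154.5 at lost and 166.9 at kept hotspots. The ranges of the lost and kept overlap in that class, and the kept median lies above the 75th percentile of the lost.

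**Figure D2:**
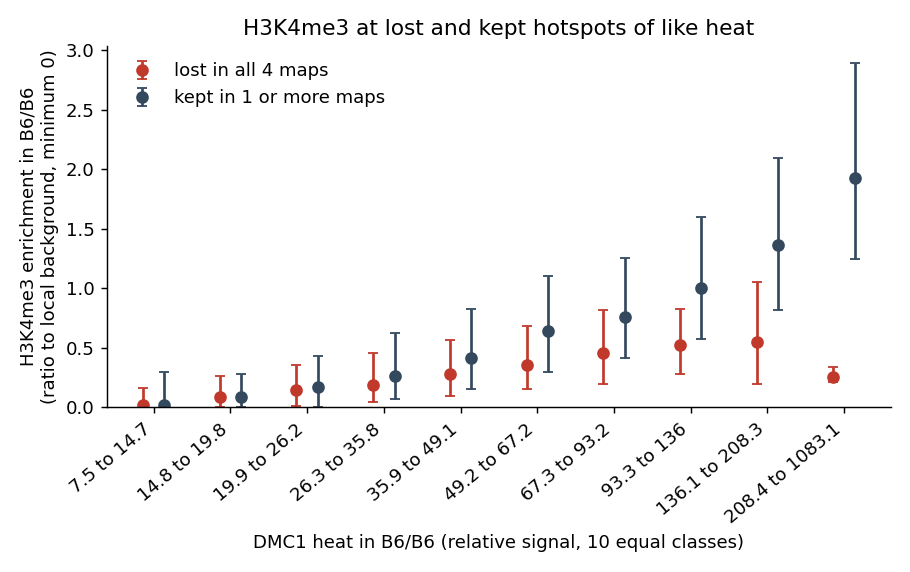
Points are median H3K4me3 enrichment in B6/B6 (y axis, ratio to local background) of lost and kept hotspots in 10 classes of DMC1 heat (x axis, relative signal), and bars run from the 25th to the 75th percentile of hotspots. Lost and kept hotspots lie close together at low heat and apart from about heat 35.9 up, and the hottest class holds only 4 lost hotspots.

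Counts of bins gave the same direction. After Benjamini-Hochberg adjustment of the authors' likelihood ratio p-values over all 16974 bins, H3K4me3 was called at 10928 bins, a background of 64.4%. It was called at 4156 of 8964 lost hotspots, or 46.4% (45.3 to 47.4%), and at 6772 of 8010 kept hotspots, or 84.5%. Weighted to the heat of the lost, the kept share was 55.3%. Lost minus kept was -8.96 percentage points, with an SD of 6.22 points over autosomes and the same direction on 18 of 19. An enrichment of exactly 0 was listed at 1907 lost hotspots, or 21.3%, and at 20.9% of kept hotspots at matched heat. Bins with no estimated mark were therefore about as common in both, and the kept hotspots exceeded the lost in the bins that carried some. Summed over bins, pseudoreplicate 1 had 0.636 ChIP fragments per input fragment at lost and 1.52 at matched kept hotspots, and pseudoreplicate 2 had 0.638 and 1.52. Bins with very many fragments weigh heavily in such sums, and bins that the authors marked as likely PRDM9-independent were included. Median ChIP fragments differed less, with 14 at lost and 17 at matched kept bins in each pseudoreplicate. Median input was 33 fragments at lost and 34 at matched kept bins.

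Read the other way, H3K4me3 sorted hotspots of like heat by whether they were lost. Each heat class was split into 3 equal groups by H3K4me3. For heat from 67.3 to 93.2, 56.7% (52.6 to 60.8%) were lost in the group with the lowest H3K4me3, 41.4% in the middle group and 27.2% (23.7 to 31.0%) in the highest. For heat from 93.3 to 136 the shares were 37.1% (33.2 to 41.2%), 21.0% and 6.89% (5.08 to 9.28%). Median heat of these 3 groups was 109.35, 111.2 and 113.95, a small difference beside that in the share lost. In the coldest class the shares were 84.5%, 86.2% and 81.8%, with no order. Across lost hotspots heat and H3K4me3 had a Spearman rho of 0.46 (n = 8581 hotspots of 1 genotype, without bins marked as PRDM9-independent or of high input), against 0.65 across kept hotspots (n = 7378). This is a correlation across hotspots, which are not independent replicates, and the lost cover a narrower range of heat.

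**Figure D3:**
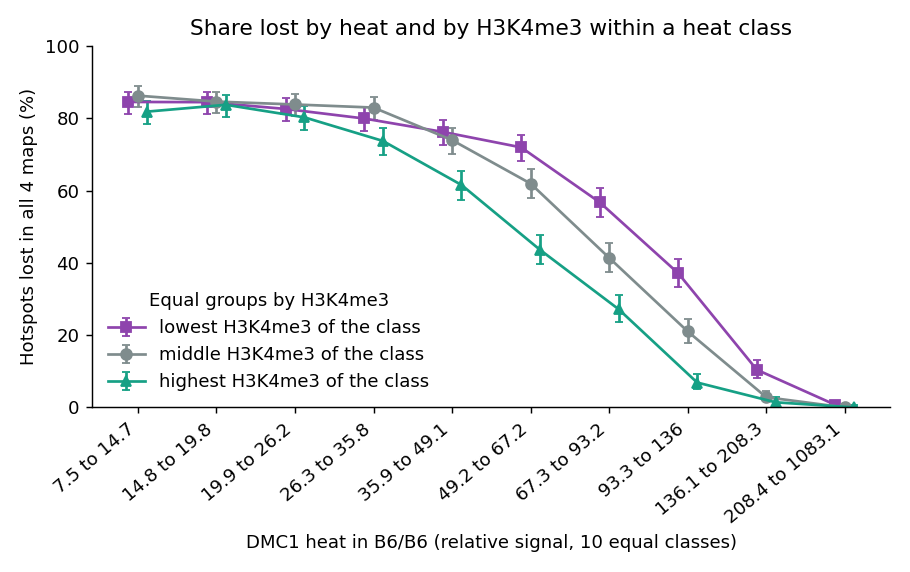
Points give the percentage of B6/B6 hotspots lost in all 4 heterozygote maps (y axis) by class of DMC1 heat (x axis, relative signal), for 3 equal groups of each class by H3K4me3 in B6/B6, with 95% Wilson intervals. The 3 groups lie together in the coldest classes and separate from about heat 35.9 up, to 37.1% against 6.89% lost for heat from 93.3 to 136.

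H3K4me3 in the heterozygotes at the lost hotspots was not analysed here, because the 2 tables of F1 males with the PWD and B6 alleles list bins at the hotspots of their own maps, and 0 of the 8964 lost hotspots had a bin centre within 500 bp in either.

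Only 88 of the 3397 hotspots with heat of at least 136, the hottest 20%, were lost, or 2.59%. Their median enrichment was 0.466, against 1.63 at the kept hotspots with heat of at least 136. Heat was not matched within that range, where 4 lost and 1691 kept hotspots had heat above 208.3. For heat from 136.1 to 208.3 the medians were 0.548 and 1.36. The hottest lost hotspot lies in an intron of Wdr70 (chr15:7949801), with heat 267.1, 17 and 15 ChIP fragments, 32 input fragments and enrichment 0.225. The hotspot kept in all 4 maps with the closest heat, 267.3, lies in a coding exon of Rnf17 (chr14:56485186), a gene of male germ cells, with 225 and 204 ChIP fragments, 36 input fragments and enrichment 5.68. Its heat was 291.2 in the B6/Hum, 258.8 in the infertile F1, 233.2 in the reciprocal F1 and 326.7 in the B6 by CAST map, each on that map's own scale. The lost hotspot thus carried little H3K4me3 in B6/B6 at the heat of a kept hotspot that every heterozygote map held.

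The next hottest lost hotspot lies 4656 bp from Gipc2 (chr3:152170886), with heat 253.3 and enrichment 0.188. It is near the limit, with a centre at 1086 bp in the infertile F1, 1087 bp in the reciprocal F1 and 1051 bp in the B6 by CAST map. In all, 13 of the 88 had a heterozygote centre at 1 to 2 kb, while 4.96% of all lost hotspots did. Another in an intron of Wdr70 (chr15:7983599) had heat 227.4 and enrichment 0.517, and one at 56135 bp from the collagen gene Col24a1 (chr3:145236337) had heat 207.7, enrichment 0.381 and a nearest heterozygote centre at 1561 bp. The hotspot kept in all 4 maps closest in heat to that near Gipc2 had an enrichment of 1.13, at 170282 bp from Mrps30 (chr13:118208099), which encodes a mitochondrial ribosomal protein. The one closest to the second Wdr70 hotspot had 2.69, in an intron of Rnf166 (chr8:122474312). The lost hotspot was the lower in both pairs, although the bin at Rnf166 overlaps an H3K4me3 peak that the authors marked as likely to be PRDM9-independent.

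The remaining 6 of the 10 hottest lost hotspots were less uniform. A hotspot in an intron of the histone methyltransferase gene Ehmt1 (chr2:24917908) had heat 206.4 and enrichment 1.80, close to the 1.72 of its partner of heat 206.4 in an intron of Cfap61, which encodes a protein of cilia. A hotspot 57005 bp from the transcription factor gene Olig3 (chr10:19415609) had heat 202.7, enrichment 2.27 and a nearest heterozygote centre at 1504 bp. Both of these bins carry the same mark. Enrichment was 0.958 in an intron of Tmem266 (heat 201.5), 1.09 at 21197 bp from the tetraspanin gene Tspan8 (196.2, with a heterozygote centre at 1292 bp), 0.359 in an intron of Pdhb, a subunit gene of pyruvate dehydrogenase (194.8), and 0.193 in an intron of the interferon receptor gene Ifnar1 (194.2). For comparison, the 5 hottest hotspots kept in all 4 maps, near Asxl2 and Trim24, in introns of Fat4 and Ankfn1 and in a coding exon of Notch2, had heats from 638.7 to 674.1 and enrichments from 2.36 to 4.19.

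Hot lost hotspots lay together on one stretch of chromosome 15. Of the 88, 7 fell between the centres at 6130822 and 8188819, while no other chromosome had more than 3 within any 3 Mb. The stretch held 31 hotspots in all, of which 23 were lost, where 52.8% of all autosomal hotspots were lost. It held 12 with heat of at least 136, of which 7 were lost, where 2.59% of all hotspots of such heat were lost. The 7 lie 168966 bp from Dab2, 14132 bp from the oncostatin M receptor gene Osmr, 44784 bp from Egflam, at 2 intronic places in Wdr70 and in coding exons of the nuclear pore gene Nup155 and of Cplane1. Their heats ran from 144 to 267.1, and their enrichments were 1.56, 0.182, 0, 0.225, 0.517, 0.747 and 0.225 in that order. The median enrichment of the 12 hot hotspots of the stretch was 0.416, against 1.60 over all 3397, with median inputs of 29.5 and 32 fragments. The stretch was picked after the values were seen.

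Some lost hotspots had very high H3K4me3, although kept hotspots reached a higher enrichment still, up to 54.7. The 5 highest enrichments among the lost were 21.9 in an intron of Gm49384 (chr12:69198576, heat 46.1), 20.6 in an exon of the pseudogene Slco6b1 (chr1:96997161, heat 54.8), 19.9 in an intron of Ankrd46 (chr15:36496124, heat 26.8), 16.9 in an intron of Hnrnph1, an RNA-binding protein gene (chr11:50379100, heat 15.9), and 14.0 in an intron of the peptidase gene Prep (chr10:45067909, heat 16). All 5 bins were marked as PRDM9-independent. Over all lost hotspots the mark was rare, at 4.26% (3.86 to 4.70%) against 9.64% of kept hotspots at matched heat, lower on 18 of 19 autosomes. The difference, lost minus kept, was -5.38 points with an SD of 3.13 points over autosomes. Bins with this mark were thus less common among the lost than among the weak kept hotspots. Among hotspots with no other-allele hotspot within 2 kb the difference was -2.90 points, smaller than that SD. With marked and high-input bins left out, lost hotspots had 0.759 of the matched H3K4me3 of kept ones.

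The place of lost hotspots in the genome differed little from that of kept ones. Within 1000 bp of a protein-coding transcription start lay 1.91% (1.64 to 2.21%) of lost and 3.32% of matched kept hotspots, a difference of -1.41 points that is smaller than the SD of 2.60 points over autosomes. The lost share was the lower on 15 of 19 autosomes. Without PRDM9-independent or high-input bins the difference was -0.0704 points. Exons held 6.50% of the lost and 7.01% of the kept, introns 51.8% and 50.8%, and 41.7% and 42.2% lay outside genes, all within the spread over autosomes. Median GC content within 250 bp of the centre was 43.3% and 43.9%. Soft-masked repeat letters made up 20.0% and 22.6%, a difference of -2.59 points beside an SD of 2.46, with the lost lower on 16 of 19 autosomes. The share lost ran from 49.3% on chromosome 12 to 56.7% on chromosome 4, while heat alone would give 51.6% and 53.1% there. The nearest other B6/B6 hotspot was a median 43.5 kb from a lost and 43.2 kb from a matched kept hotspot.

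The distance to the nearest hotspot of the other allele gave a small difference that did not outlast a control for overlap. The nearest Hum/Hum hotspot lay at a median 46.1 kb from lost and 41.8 kb from matched kept hotspots, and the nearest PWD/PWD hotspot at 35.2 and 30.2 kb. For the CAST allele, hotspots of the B6 by CAST map that match no B6/B6 hotspot stood in for a homozygous map, with medians of 49.4 and 47.9 kb. By definition these lie more than 1000 bp from every B6/B6 hotspot, and which allele made them was not analysed. The Hum/Hum difference of 4.35 kb was below its SD of 9.33 kb over autosomes, with lost hotspots farther on 14 of 19 autosomes. The PWD/PWD difference of 4.94 kb exceeded its SD of 3.79 kb, with lost hotspots farther on 17 of 19 autosomes. Heterozygote maps can also hold hotspots of the other allele, so the rule can count B6/B6 hotspots that lie on one as kept. Among B6/B6 hotspots with no hotspot of the other alleles within 2 kb, 8378 lost and 6981 kept, the medians were 48.2 and 49.5 kb to Hum/Hum, 36.7 and 37.8 kb to PWD/PWD and 50.8 and 51.7 kb to CAST-type hotspots. Lost hotspots were then no farther from the other allele's hotspots than kept ones, and 24.2% and 23.9% of them had a Hum/Hum hotspot within 20 kb.

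**Figure D4:**
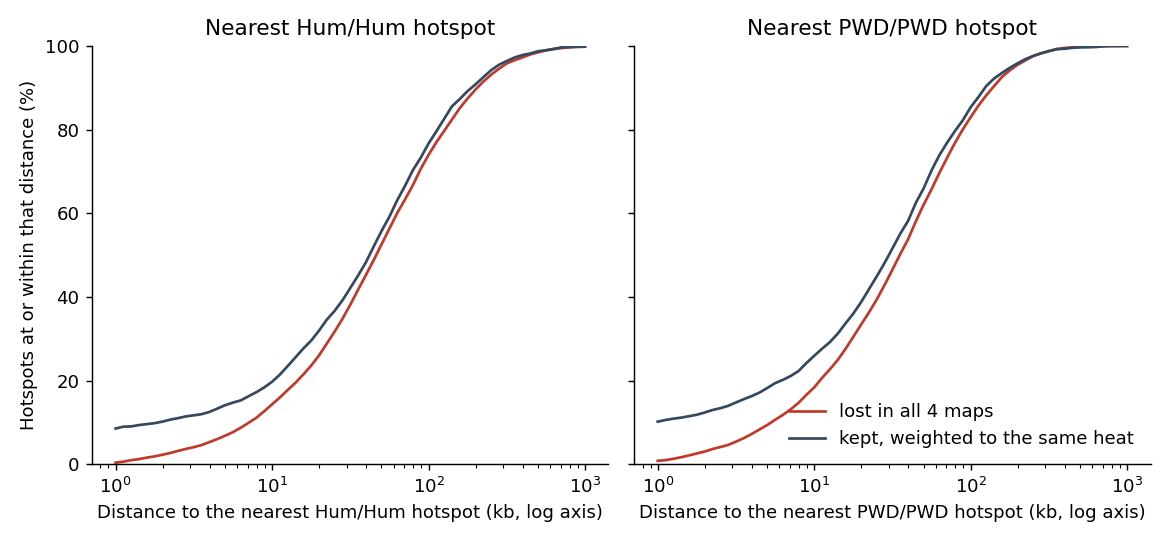
Lines give the cumulative percentage of lost hotspots and of kept hotspots weighted to the same heat (y axis) by distance to the nearest Hum/Hum (left) or PWD/PWD (right) hotspot (x axis, kb, log axis). At 1 kb the lines start at 0.39% and 8.55% for Hum/Hum and at 0.81% and 10.2% for PWD/PWD, a gap that the rule can set in part, and they come together at long distances.

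The same limit holds for the presence of lost hotspots in maps without a B6 allele. Hum/Hum held 35 lost hotspots within 1000 bp, or 0.39% (0.28 to 0.54%), PWD/PWD 73, or 0.81%, the rescue F1 31, or 0.35%, and the Hum/PWD F1 46, or 0.51%. Kept hotspots at matched heat were present in 8.55%, 10.2%, 8.33% and 11.3%. A B6/B6 hotspot that lies near a hotspot of another allele can match a heterozygote hotspot of either allele, and which of them it was is not analysed here, so these shares are not independent of the rule. Such sites form part of the weak kept hotspots, and without any hotspot of the other alleles within 2 kb the H3K4me3 of lost hotspots was 0.666 of that of kept ones at matched heat.

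DNA sequence at the centre did not separate lost from kept hotspots of like heat. On the even-numbered autosomes, GNTGCTNCT was present in 13.0% of 4321 lost and 12.3% of matched kept hotspots, with 3.62% in the flanks of both. Any of the 10 words of 8 letters most in excess at the 1000 hottest kept hotspots of the odd-numbered autosomes was present in 23.1% and 22.4%. A matrix of 25 positions learnt on the same training hotspots, whose letters at 50% or more read AGNNGNTNCTGCC over the informative stretch, scored above the 95th percentile of flank scores in 34.1% (32.7 to 35.6%) of lost and 32.4% of matched kept hotspots, with 4.87% and 5.86% in the flanks. The 3 differences, of 0.74, 0.68 and 1.77 points, were below their SDs of 2.66, 3.19 and 6.29 points over 9 autosomes. Without matching, 41.6% of kept hotspots passed the matrix score, so the matrix went with heat but not with loss at a given heat. A match is a run of letters and no measured binding.

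**Figure D5:**
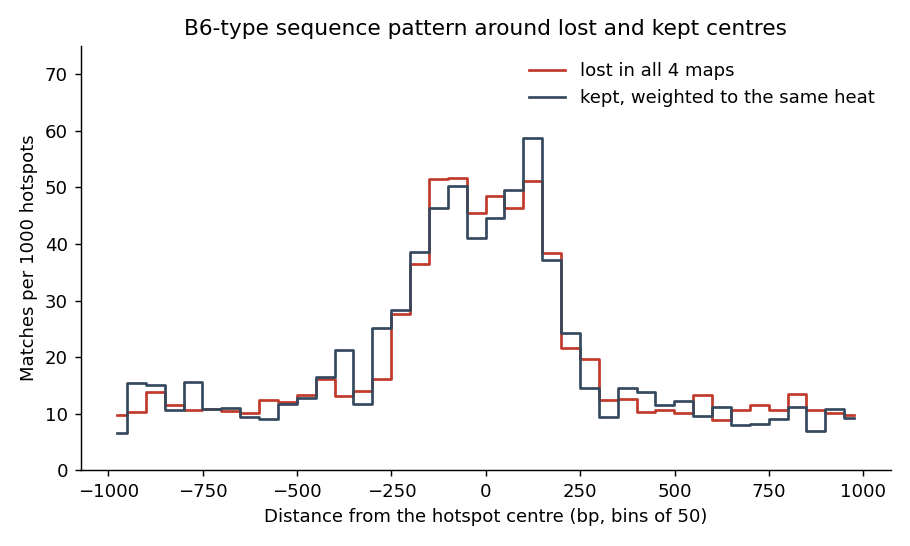
Lines give matches of the pattern per 1000 hotspots (y axis) in bins of 50 bp by distance from the hotspot centre (x axis, bp), for lost hotspots and for kept hotspots weighted to the same heat, on all autosomes and both strands. Both lines lie near 10 in the flanks and between 41.1 and 58.7 within 150 bp of the centre.

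Hotspots inside genes of meiotic break formation and repair were counted last. Of 48 genes of that list with an annotation, extended by 2000 bp, 15 held 24 hotspots. Of these, 17 were lost, or 70.8% (50.8 to 85.1%), where 52.8% of all autosomal hotspots were lost and the heat of the 24 alone would give 54.2%. Among the hottest were those at Ankrd31, needed for break formation (heat 75.4, enrichment 1.18), Prdm9 (69.3, 0), the meiotic cohesin gene Smc1b (57.5, 0) and Ccdc36, whose product IHO1 acts in break formation (52.1, 0.304). The hottest kept hotspot of the list was at Hsf2bp, whose product binds BRCA2, with heat 456.4, enrichment 2.95 and presence in all 4 maps. With 24 hotspots the interval includes the background.

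The count rests in part on Prdm9 itself, which held 5 hotspots, all lost. The gene spans chr17:15543079-15564354 on the minus strand, and 20.2% of its length is exonic. One centre lies in a UTR (chr17:15543954, heat 29.8) and 4 lie in coding exons at chr17:15544943, chr17:15553391, chr17:15555239 and chr17:15557437, with heats of 69.3, 24.2, 38.9 and 32.6. The enrichment was 0 at each. The pseudoreplicates had 16 and 8, 6 and 4, 5 and 8, 8 and 6, and 3 and 4 ChIP fragments, beside 50, 77, 30, 34 and 21 fragments in the input of Hum/Hum males. None scored above the matrix threshold of 11.1 bits, with scores from 1.58 to 7.20. Nearest heterozygote centres lay 7433 to 20916 bp away. In all, 126 lost hotspots in exons had an enrichment of 0, over 120 genes, and Prdm9 was the single gene with 3 or more. These 5 hotspots were singled out after their values were seen. The part of the input in these values was not tested.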

How the data were processed

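This work starts from deposited tables. Mapping was done with BWA on mm10, and on mm9 for some DMC1 lists, per the submitters' processing notes, which also name SAMtools and bedtools for H3K4me3. Tool versions, the hotspot caller and the meaning of a unit of heat were not given in the sources used here. Heat is the deposited relative DMC1 signal. H3K4me3 values in 1 kb bins are, per the file headers, counts of overlapping fragments, a fitted enrichment ratio over local coverage and its likelihood-ratio p-value. The B6 share of reads, a fraction deposited for hybrid maps, was not used.

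Hotspots were matched by the nearest centre within 1000 bp with Python 3.11.15, NumPy 2.4.6 and pandas 2.3.3, and drawn with Matplotlib 3.10.9. Kept hotspots were weighted to the 10 heat classes of the lost, and deposited p-values were adjusted over all 16974 autosomal bins and called below 0.05. Genes are GENCODE M21, and exonic means in any annotated exon. Bins with input above 10 times the median of 33 fragments (1 lost, 33 kept) and chromosome 18 were left out of named hotspots. Named are the 10 hottest lost, the 5 lost with the highest enrichment, the 5 hottest kept in all 4 maps, 3 on each side of 1000 bp, the kept-in-all-4 hotspot closest in heat to each of the 5 hottest lost, and the 5 hottest lost in meiotic genes. A few of these hotspots are not reported here. Matching, weighting and adjustment were tested on simulated data. Members and lists were chosen with earlier results of these data known. Alternatives are given in the closing section.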

Additional observations from a re-analysis of the deposited data

How the results depend on the processing

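The number lost, heat, H3K4me3, Hum/Hum and PWD/PWD distances, pattern, matrix, coding starts, mark and presence were recomputed, where a setting applied, with matching at 500 and 2000 bp, with equally long maps of 16163 hotspots, without each heterozygote map in turn, with hotspots at or above the median heat, without PRDM9-independent or high-input bins, with other heat matching and other measures. Settings without other-allele hotspots within 2 kb, the matrix score, and all settings for heat, called bins, place, mark and presence were added after the data were seen. The number lost lay between 8037 and 9969 in every setting over all heats. Some settings leave hotspots out of both groups, and the 8037 lost stood beside 6572 kept. At or above the median heat, 2170 were lost and 6318 kept. There the heat of lost over kept hotspots was 0.489, presence in any map without a B6 allele differed by -5.91 points (main value -16.8), and the PWD/PWD distance ratio turned to 0.953 from 1.16. That ratio also turned without other-allele hotspots within 2 kb, to 0.971, and to 0.966 when marked and high-input bins were left out too.

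The H3K4me3 ratio of 0.688 moved by less than its SD over autosomes, 0.223, in 15 of 18 settings. It was 0.418 and 0.421 as sums of fragments in the pseudoreplicates. With no weighting by heat it was 0.19, and there the called share differed by -38.2 points and the matrix share by -7.46. Against kept hotspots found in all 4 maps, of which the coldest 4 classes hold 19, the H3K4me3 ratio was 0.91. Lost hotspots were the lower on 13 of 19 autosomes there. In that weighting the 19 stand for all lost hotspots of the coldest 4 classes, so weighted values of this comparator lean on them. Within classes, the lost median was 0.381 of the median of this comparator for heat from 67.3 to 93.2. It was 0.349 for 93.3 to 136 and 0.297 for 136.1 to 208.3. With the same comparator the heat ratio was 0.122, the distance ratios 86.4 and 21.0, the pattern and matrix differences -8.33 and 13.3 points, the difference near starts -4.87, the PRDM9-independent mark -26.4 and presence -66.7. As a share within 5 kb, kept over lost, the distance ratios were 2.07 for Hum/Hum and 1.94 for PWD/PWD. Presence differed by -12.7 points at 500 bp, -10.6 without the B6/Hum map, -11.7 in pairs closest in heat and -7.40 with no weighting. No paired analysis was possible because each map is 1 library and the labels carry no shared replicate numbers. A hotspot below the calling limit of a map cannot be told from an unused one, and each map has its own limit.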

Other observations

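The mm9 lists give a further view of the B6/Hum genotype. There the B6/Hum list was made by joint calling, per its name, and held 18221 autosomal hotspots. Of 17517 B6/B6 hotspots on mm9, 5162 or 29.5% (28.8 to 30.1%) had a B6/Hum centre within 1000 bp, against 27.1% (26.4 to 27.8%) in the mm10 lists. Lists on the 2 builds were not matched to each other, so which hotspots account for the gain was not analysed here.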
